A study of Mus musculus with 16 samples.

Results

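The 39 genes described here encode enzymes that activate fatty acids, carry them into mitochondria and oxidise them in mitochondria or peroxisomes. They were chosen by name, as the listed carnitine shuttle, beta-oxidation, electron transfer flavoprotein and acyl-CoA synthetase genes, and all 39 were found among the 39179 genes of the count table. RNA was sequenced from 16 mice in 4 groups of 4: wild-type mice and mice homozygous for the *MRPS5* V338Y knock-in, at 3 and at 19 months of age. The product of *Mrps5* belongs to the mitochondrial ribosome, in its small subunit, and V338Y is the amino acid exchange made by the knock-in. The study asked how the mutation and age change transcript levels in the brain. Mice are named here by their group and by the mouse number in the labels. These numbers are unique within a group, and some recur in another group, which was not read as the same mouse.

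Long-chain fatty acids are joined to coenzyme A by acyl-CoA synthetases, passed to carnitine by CPT1 on the outer mitochondrial membrane and returned to coenzyme A by CPT2 on the inner side. Each round of beta-oxidation then uses an acyl-CoA dehydrogenase, a hydratase, a second dehydrogenase and a thiolase, and the electrons of the acyl-CoA dehydrogenases reach ubiquinone through the electron transfer flavoprotein and its oxidoreductase. In brain, these reactions are mainly known from astrocytes, and neurons oxidise little long-chain fatty acid. Peroxisomes shorten very long-chain and branched fatty acids, and some enzymes of the same families break down branched-chain amino acids instead.

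Total counts were between 6181448 and 19601664 per mouse. All 39 genes passed the filter on low counts in all 5 comparisons. Per-gene values below are counts per 1000000 counts (CPM), scaled with TMM factors over all 16 mice, and errors are SD over the 4 mice of a group. The labels name brain as the tissue and muscle in the extraction protocol, whereas the methods of the study name cortex. Cortical neuron markers summed to 705 to 897 CPM over all mice, and skeletal muscle markers to 5.46 to 10.49 CPM at 3 months and 7.279 to 157.7 CPM at 19 months. The methods name female mice in all groups. However, *Xist*, the transcript of the inactive X chromosome, was at 0.4475 to 1.232 CPM in the 3-month-old mice and at 714.7 to 1169 CPM in the 19-month-old mice, and 4 Y-linked genes summed to 243.8 to 288.3 CPM at 3 months and to 0 at 19 months. Age and sex therefore cannot be told apart in these samples. Cerebellum markers summed to 115.1 to 139.7 CPM in all 19-month-old mice and to 709.2 to 1809 CPM in 7 of the 3-month-old mice. The remaining 3-month-old animal, V338Y mouse 14, had 153.5 CPM. Age therefore cannot be told apart from the level of cerebellum markers in wild-type mice. In V338Y mice only mouse 14 separates them. In bulk RNA, fewer cells of a type and less RNA per cell cannot be told apart. *Mrps5* itself was at 27.3 to 31.6 CPM at 19 months in both genotypes. Counts do not show which base a transcript carries, so they do not check the genotype.

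The 39 genes spanned a wide range of transcript levels. To compare genes, CPM was divided by the length of the principal transcript in kb. In 3-month-old wild-type mice, *Acsl6*, a long-chain acyl-CoA synthetase known from neurons, had 121 CPM per kb, and *Acsl3*, a long-chain acyl-CoA synthetase of the endoplasmic reticulum and lipid droplets, had 52.9. The next levels were those of the peroxisomal thiolase *Acaa1a* with 33.2, the very long-chain acyl-CoA dehydrogenase *Acadvl* with 29.9 and the peroxisomal bifunctional enzyme *Hsd17b4* with 29.6 CPM per kb. At the low end were *Acss3*, a mitochondrial short-chain synthetase that prefers propionate, with 0.50 CPM per kb, *Acad10* with 1.21, the peroxisomal enzyme *Ehhadh* with 1.52 and the medium-chain synthetase *Acsf2* with 2.01. *Acss3* had between 16 and 75 counts per mouse, the least of the 39 genes, and its values carry the largest counting error among them. The median coefficient of variation of the 39 genes within a group was between 5.21% and 7.41% over the 4 groups.

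**Figure D1:**
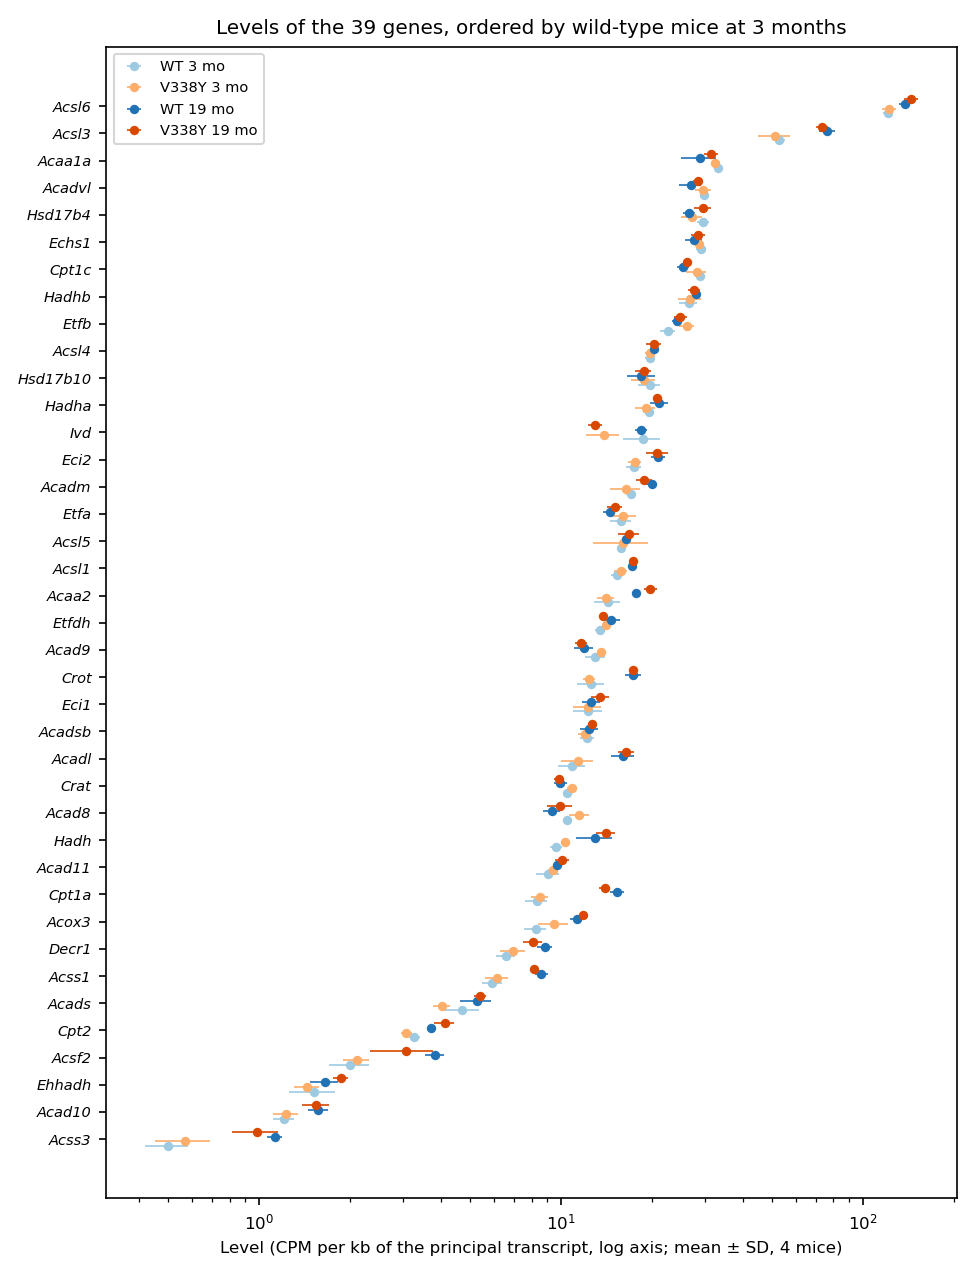
Transcript level of each of the 39 genes in CPM per kb of principal transcript (log axis), as group means (points) and SD (bars) of 4 mice, ordered by the level in 3-month-old wild-type mice. The means run from 0.50 for *Acss3* to 121 for *Acsl6* in 3-month-old wild-type mice.

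The carnitine palmitoyltransferase 1 isoforms differed in level and in course. *Cpt1a* encodes the isoform of liver and astrocytes, which is inhibited by malonyl-CoA, and *Cpt1c* the neuronal isoform of the endoplasmic reticulum, which has little transferase activity. At 3 months, wild-type mice had 8.31 CPM per kb of *Cpt1a* and 28.9 of *Cpt1c*. The ratio of *Cpt1a* to *Cpt1c* per kb was 0.287 ± 0.0175 (SD, n = 4) for wild-type and 0.304 ± 0.0424 for V338Y mice at 3 months. At 19 months the ratio reached 0.61 ± 0.0585 for wild-type and 0.533 ± 0.00795 for V338Y mice. Every 19-month-old mouse, with ratios of 0.525 or more, lay above every 3-month-old mouse, with ratios of 0.355 or less.

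The promoters of *Cpt1a*, *Cpt1c* and *Acsl6* are shown because these transcripts differed in course with age or in level from the other genes and because all 3 hold the letters AGGTCA, the half-site of many nuclear receptors. The 250 bases before a gene start of RefSeq (GRCm38.p6) are given, 5′ to 3′ on the strand of the gene, and capitals mark AGGTCA or its reverse complement TGACCT. *Cpt1a* lies at chr19:3323051-3323300 on the plus strand, *Cpt1c* at chr7:44974852-44975101 on the minus strand and *Acsl6* at chr11:54303574-54303823 on the plus strand.
Cpt1a: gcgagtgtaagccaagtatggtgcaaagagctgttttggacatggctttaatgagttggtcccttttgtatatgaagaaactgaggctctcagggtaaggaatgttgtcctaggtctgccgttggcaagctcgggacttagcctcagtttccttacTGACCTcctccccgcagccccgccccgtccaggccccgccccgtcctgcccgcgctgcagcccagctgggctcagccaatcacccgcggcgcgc
Cpt1c: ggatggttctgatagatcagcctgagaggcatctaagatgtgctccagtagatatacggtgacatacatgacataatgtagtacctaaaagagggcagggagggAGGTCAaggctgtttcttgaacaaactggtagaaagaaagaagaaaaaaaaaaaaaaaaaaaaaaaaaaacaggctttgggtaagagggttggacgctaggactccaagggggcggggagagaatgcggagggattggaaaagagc
Acsl6: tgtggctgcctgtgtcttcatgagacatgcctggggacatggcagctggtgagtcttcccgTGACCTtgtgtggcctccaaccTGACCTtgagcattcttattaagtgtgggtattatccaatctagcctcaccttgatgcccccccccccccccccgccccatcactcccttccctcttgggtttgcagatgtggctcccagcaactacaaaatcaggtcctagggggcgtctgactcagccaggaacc
The RefSeq start of *Cpt1a* lies 967 bases inside the GENCODE gene, which has transcripts that begin farther upstream, and that of *Acsl6* 26 bases inside. *Acsl6* has 3 RefSeq starts, of which the one with these letters is shown. Counted from the RefSeq start, the letters stand at -94 to -89 in *Cpt1a*, at -146 to -141 in *Cpt1c* and at -189 to -184 and -167 to -162 in *Acsl6*. For 33 of the 39 genes, 36 promoters of the RefSeq table were searched. AGGTCA on either strand was found for 6 genes (*Cpt1a*, *Cpt1c*, *Acsl6*, *Acadm*, *Acadvl* and *Echs1*), in 6 of 36 promoters, against 14% of all 32851 promoters. AGGTCA repeated with 1 base between, the letters that PPAR dimers are known to bind, was found in none of the 36, against 0.0335% of all promoters. The estrogen-related receptor motif TCAAGGTCA was found for *Acsl6*, where it overlaps the second AGGTCA, against 0.387% of all promoters. The NRF1 motif was found for *Acad10* and *Etfdh*, against 1.83%. TGACGTCA and CACGTG were found in none of the 36, against 1.55% and 6.02%. A match of letters does not show that a factor binds.

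With age, transcript levels of a share of these genes were higher at 19 than at 3 months in both genotypes. In wild-type mice, 17 of the 39 genes rose and 1 fell at an adjusted p under 0.05, whereas 31.4% of all 16101 genes tested rose and 31.5% fell. In V338Y mice, 17 rose and 1 fell, against 23.1% and 25.7% of all 16770 genes tested. With library size as the only scaling, 14 of the 39 rose and 6 fell in wild-type mice, where the share of rises among all called genes was 39.8% instead of 49.9%. The median log2 fold change of the 39 genes was 0.152 for wild-type and 0.14 for V338Y mice, compared with -0.00496 and -0.0287 over all genes. At the stricter adjusted p under 1e-05, which the methods of the study name for age, 10 of the 39 genes rose and none fell in wild-type mice, against 14.5% and 12.3% of all genes. In V338Y mice 1, *Cpt1a*, rose and none fell, against 4.16% and 0.739%. The results section of the study applies 1e-05 to the unadjusted p. At that cut, *Hadh* in wild-type and *Crot* in V338Y mice rose as well (edgeR unadjusted p = 4.72e-06 and 1.05e-06). At an adjusted p under 0.05, the same 14 genes rose in both genotypes: *Cpt1a*, *Crot*, *Acadl*, *Acad10*, *Hadh*, *Eci2*, *Decr1*, *Acaa2*, *Acox3*, *Acsf2*, *Acsl3*, *Acsl6*, *Acss1* and *Acss3*. How many of all genes rose in both genotypes was not computed, so this overlap is not read as particular to the 39 genes. In V338Y mice, *Acad10* was called in 4 of the 8 fits that left out a mouse and *Decr1* in 3 of 8, and DESeq2 did not call *Acad10* in either genotype. *Acadm*, *Hadha* and *Acsl1* passed the test in wild-type mice and *Cpt2*, *Acads* and *Ehhadh* in V338Y mice. *Cpt1c* fell in wild-type and *Acad9* in V338Y mice. The remaining 17 genes passed in neither genotype. These genotype-wise calls do not show a difference between the genotypes, which is tested further down.

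**Figure D2:**
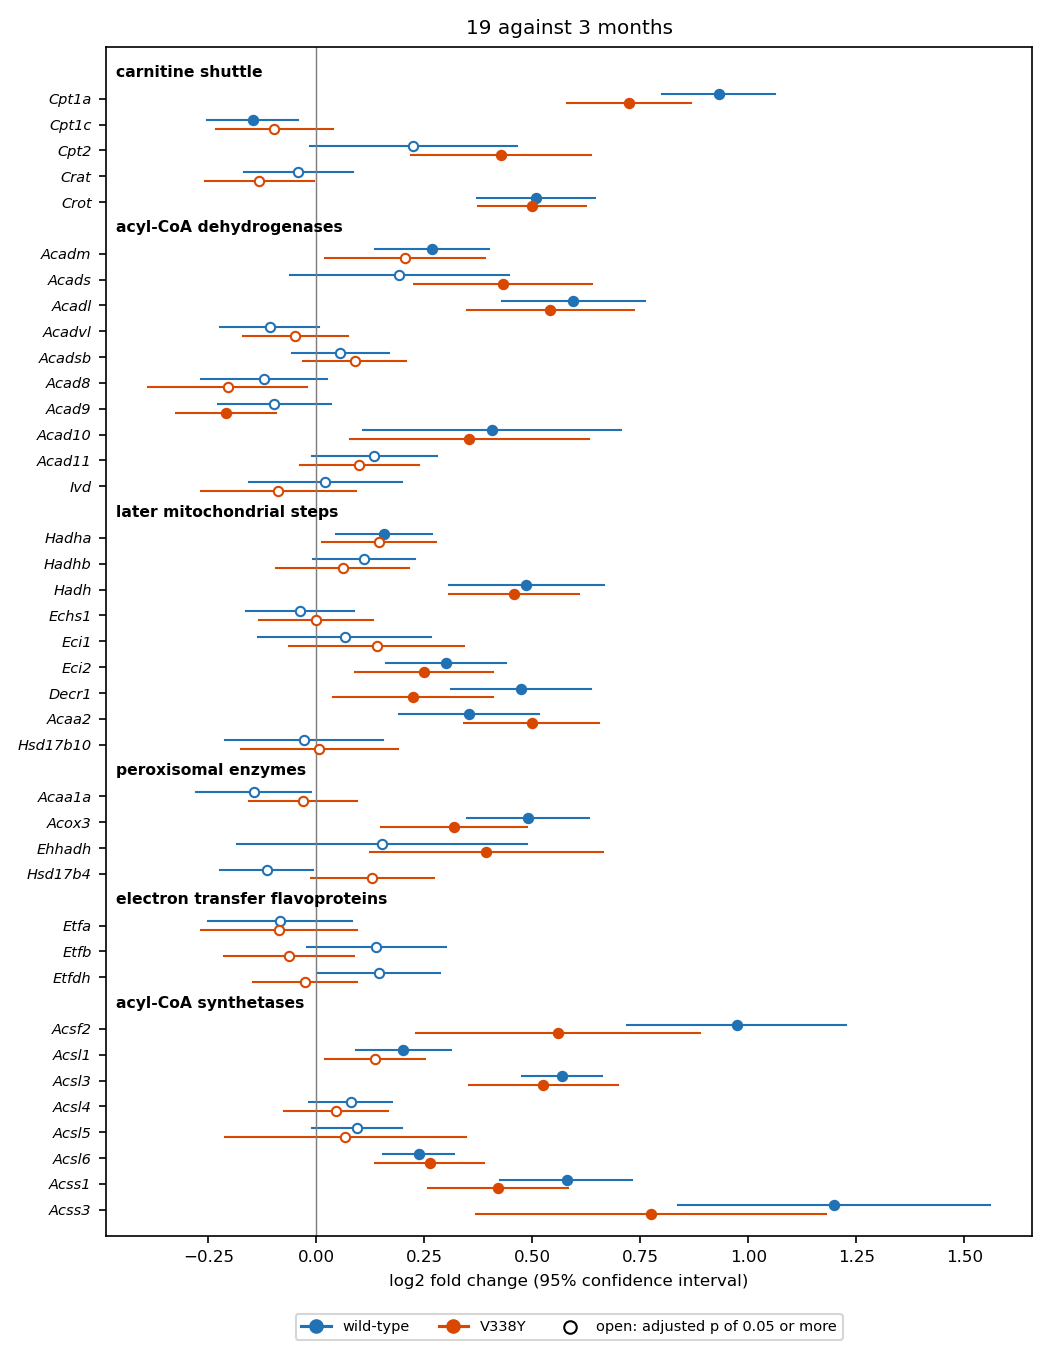
Log2 fold change from 3 to 19 months (x axis) with its 95% confidence interval for each of the 39 genes, drawn separately for wild-type and V338Y mice (4 mice per age and genotype); filled points have an adjusted p under 0.05. The estimates run from -0.148 to 1.198 in wild-type and from -0.209 to 0.775 in V338Y mice.

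**Figure D3:**
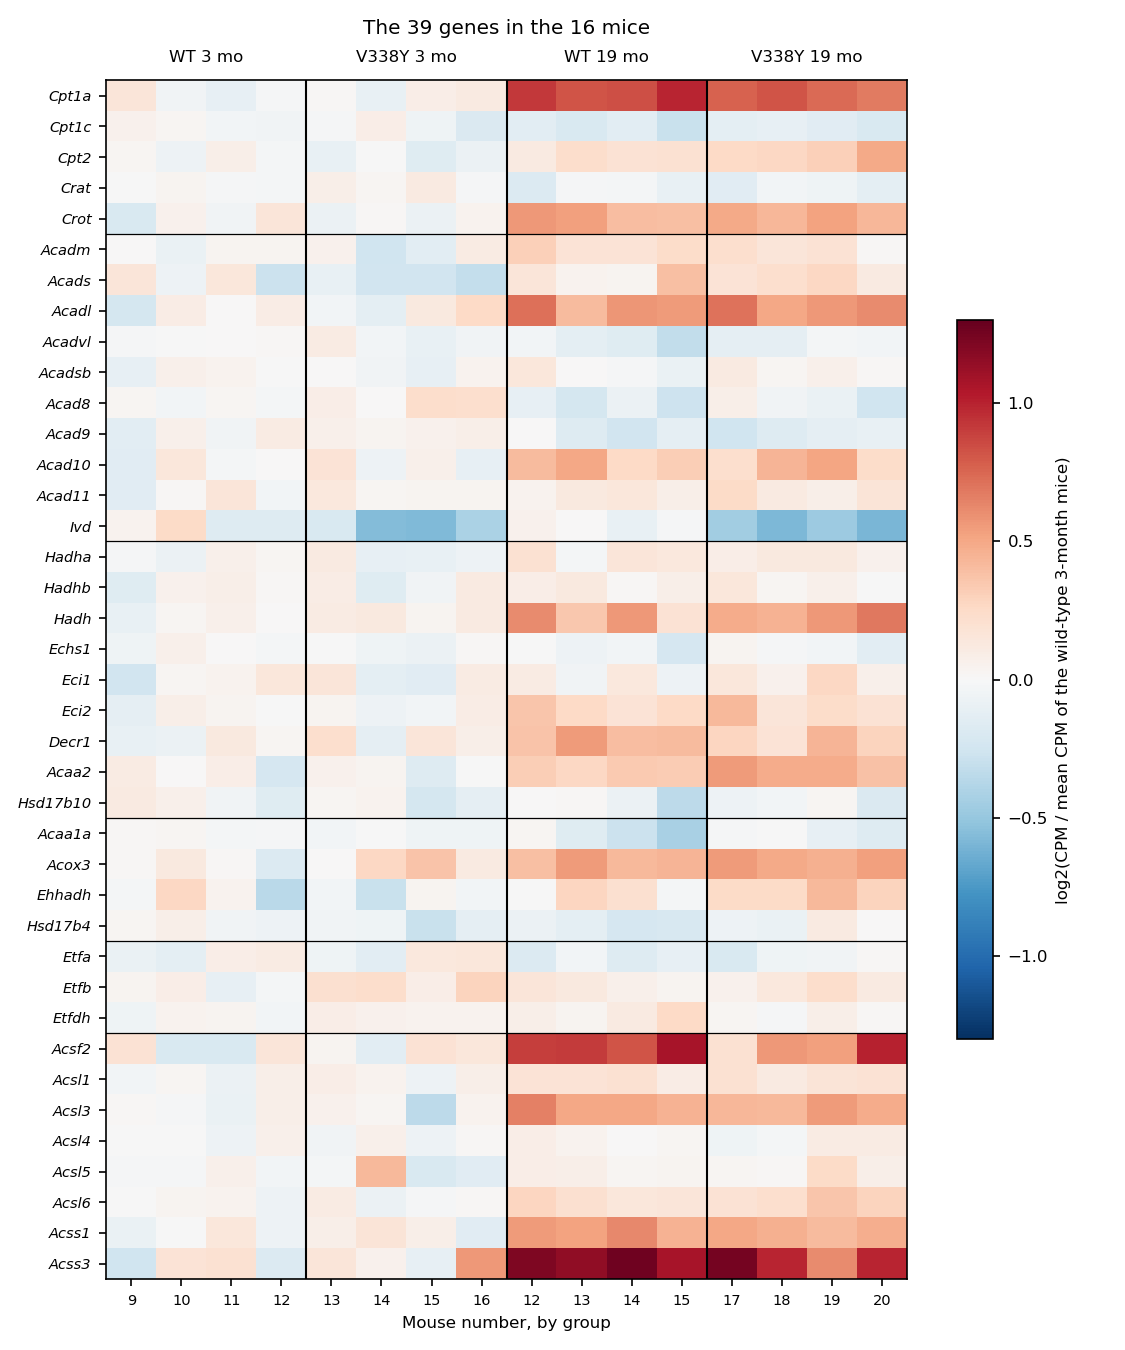
Log2 level of each of the 39 genes in each of the 16 mice relative to the mean of that gene in 3-month-old wild-type mice (colour scale in log2 units), with genes in their role groups and mice in their groups. *Acss3*, *Acsf2* and *Cpt1a* are higher in the 19-month-old groups, and *Ivd* is lower in both V338Y groups.

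In the carnitine shuttle, *Cpt1a*, *Crot* and, in V338Y mice, *Cpt2* rose, and *Cpt1c* fell in wild-type mice. In wild-type mice, *Cpt1a* stood at 40.1, 34.7, 33.4 and 35.5 CPM at 3 months and at 67.8, 63.1, 64.2 and 71.1 CPM at 19 months. The V338Y mice had 36.3, 33.6, 37.99 and 39.04 CPM at 3 months and 61.2, 63.1, 59.8 and 57.2 CPM at 19 months. Every 19-month-old mouse was above every 3-month-old mouse, and the rise was 1.907-fold in wild-type (log2 fold change 0.93, SE 0.064, adjusted p = 9.63e-14) and 1.652-fold in V338Y mice (0.72, SE 0.0661, adjusted p = 2.53e-06). *Cpt1c* stood at 83.9, 82.3, 79.0 and 78.1 CPM in wild-type mice at 3 months and at 73.3, 70.3, 73.4 and 66.2 CPM at 19 months. V338Y mice were at 80.0, 85.8, 77.8 and 71.2 CPM at 3 months and at 73.9, 75.2, 73.1 and 70.6 CPM at 19 months. The wild-type ages did not overlap (log2 fold change -0.15, SE 0.0519, adjusted p = 0.0144), whereas the V338Y ages did (-0.10, SE 0.0624, adjusted p = 0.218). *Crot*, the octanoyltransferase of peroxisomes, rose by a log2 fold change of 0.51 in wild-type and 0.50 in V338Y mice (adjusted p = 1.03e-07 and 1.8e-05). *Cpt2*, on the inner mitochondrial membrane, had 0.22 in wild-type (adjusted p = 0.0965) and rose by 0.43 in V338Y mice (adjusted p = 0.00276). *Crat*, the carnitine acetyltransferase, had -0.04 and -0.13 and passed in neither.

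Among the 10 acyl-CoA dehydrogenases, 3 rose in wild-type mice (*Acadl*, *Acadm*, *Acad10*), and in V338Y mice 3 rose (*Acadl*, *Acads*, *Acad10*) and 1 fell (*Acad9*), shares near those of all genes tested for the rises (31.4% and 23.1%). *Acadl* encodes the long-chain enzyme. It stood at 17.8, 22.3, 20.9 and 22.2 CPM in wild-type mice at 3 months and at 34.3, 27.7, 31.0 and 30.6 CPM at 19 months. In V338Y mice it stood at 20.3, 19.1, 22.8 and 24.9 CPM at 3 months and at 33.9, 29.6, 30.7 and 31.9 CPM at 19 months. The ages did not overlap in either genotype, with log2 fold changes of 0.59 (SE 0.0814, adjusted p = 1.91e-07) in wild-type and 0.54 (SE 0.089, adjusted p = 0.000311) in V338Y mice. *Acadm* encodes the medium-chain enzyme. It stood at 35.1, 32.9, 35.8 and 35.9 CPM in wild-type mice at 3 months and at 43.3, 39.4, 39.6 and 41.2 CPM at 19 months. The V338Y mice had 36.2, 29.2, 31.7 and 37.5 CPM at 3 months and 40.5, 38.9, 39.7 and 35.3 CPM at 19 months, so that the ages overlapped (log2 fold change 0.20, adjusted p = 0.0647, against 0.27, adjusted p = 0.000652, in wild-type). *Acads*, the short-chain enzyme, had 0.19 in wild-type (adjusted p = 0.181) and rose by 0.43 in V338Y mice (adjusted p = 0.00252). *Acad9*, which is also an assembly factor of respiratory complex I, had -0.10 in wild-type (adjusted p = 0.187) and fell by 0.21 on the log2 scale in V338Y mice (adjusted p = 0.00611). *Acadvl*, *Acad11* and the enzymes of branched-chain amino acid breakdown *Acadsb*, *Acad8* and *Ivd* passed in neither genotype.

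Of the 9 genes of the later mitochondrial steps, 5 rose in wild-type (*Hadha*, *Hadh*, *Eci2*, *Decr1*, *Acaa2*) and 4 in V338Y mice (the same without *Hadha*). Over all genes tested, 31.4% and 23.1% rose, respectively. *Decr1* encodes the dienoyl-CoA reductase used for unsaturated fatty acids. It stood at 18.2, 18.4, 21.2 and 19.8 CPM in wild-type mice at 3 months and at 25.1, 28.4, 25.5 and 25.8 CPM at 19 months. V338Y mice were at 22.5, 17.9, 21.6 and 20.4 CPM at 3 months and at 23.5, 21.98, 26.3 and 23.7 CPM at 19 months. The wild-type ages were apart (log2 fold change 0.47, SE 0.0792, adjusted p = 5.37e-06) and the V338Y ages overlapped (0.22, SE 0.0853, adjusted p = 0.0451). *Hadha* encodes the alpha subunit of the trifunctional protein. In wild-type mice it stood at 77.7, 74.5, 82.3 and 79.8 CPM at 3 months and at 90.04, 77.0, 87.8 and 86.6 CPM at 19 months. In V338Y mice it stood at 85.0, 72.9, 73.3 and 74.9 CPM at 3 months and at 83.3, 85.5, 86.0 and 81.7 CPM at 19 months. Both genotypes overlapped between the ages, with log2 fold changes of 0.16 (adjusted p = 0.014) and 0.14 (adjusted p = 0.065), and its partner subunit *Hadhb* had 0.11 and 0.06 and passed in neither. *Hadh*, the dehydrogenase for shorter chains, rose by 0.49 for wild-type and 0.46 for V338Y mice, and *Acaa2*, the mitochondrial thiolase, by 0.35 and 0.50. *Eci2*, an isomerase for unsaturated fatty acids, rose by 0.30 and 0.25. *Echs1*, *Eci1* and *Hsd17b10* passed in neither genotype.

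Among the 4 peroxisomal enzymes, *Acox3*, an oxidase of branched fatty acids, rose in both genotypes, by log2 fold changes of 0.49 in wild-type and 0.32 in V338Y mice (adjusted p = 3.63e-07 and 0.00489). *Ehhadh* had 0.15 in wild-type and rose by 0.39 in V338Y mice (adjusted p = 0.433 and 0.0195). *Acaa1a* had -0.15 and -0.03 and *Hsd17b4* -0.12 and 0.13, and neither passed in either genotype. *Acaa1a* has a near-identical copy, *Acaa1b*, and its count depends on how shared reads were assigned. None of the genes of the electron transfer flavoprotein, *Etfa*, *Etfb* and its oxidoreductase *Etfdh*, passed the test, with log2 fold changes between -0.08 and 0.14 in wild-type and between -0.09 and -0.03 in V338Y mice. At an unadjusted p under 0.05, 1 of these 3, *Etfdh*, passed in wild-type and none in V338Y mice, against 66.2% and 55.3% of all genes.

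Of the 8 acyl-CoA synthetases, 6 rose in wild-type (*Acsf2*, *Acsl1*, *Acsl3*, *Acsl6*, *Acss1*, *Acss3*) and 5 in V338Y mice (the same without *Acsl1*). Of all genes tested, 31.4% rose in wild-type and 23.1% in V338Y mice. *Acss3* stood at 1.97, 2.66, 2.69 and 2.07 CPM in wild-type mice at 3 months and at 5.46, 5.23, 5.64 and 4.94 CPM at 19 months. The V338Y mice had 2.62, 2.43, 2.17 and 3.46 CPM at 3 months and 5.57, 4.65, 3.60 and 4.66 CPM at 19 months. The ages did not overlap in either genotype, and the rise was 2.294-fold in wild-type (log2 fold change 1.198, SE 0.177, adjusted p = 7.51e-07) and 1.711-fold in V338Y mice (0.78, SE 0.187, adjusted p = 0.00438). The exons of *Acss3* share 2436 bases with those of *Ppfia2* on the opposite strand. *Ppfia2* had 33469 counts over all mice against 772 for *Acss3*, and strand use in the counting is not given in the sources used here. *Ppfia2* fell with age by 0.33 on the log2 scale in wild-type and by 0.29 in V338Y mice (adjusted p = 1.11e-07 and 0.00105), the direction opposite to *Acss3*.

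*Acsf2* stood at 7.25, 5.52, 5.55 and 7.08 CPM in wild-type mice at 3 months and at 11.9, 11.9, 11.2 and 13.3 CPM at 19 months. V338Y mice were at 6.52, 5.78, 7.25 and 7.03 CPM at 3 months and at 7.26, 9.36, 9.21 and 12.7 CPM at 19 months. The wild-type ages were far apart (1.962-fold, log2 fold change 0.97, SE 0.124, adjusted p = 5.47e-08), whereas the lowest 19-month-old V338Y mouse, mouse 17, was next to the highest 3-month-old one (1.473-fold, 0.56, SE 0.152, adjusted p = 0.00867). *Acss1* encodes the mitochondrial acetyl-CoA synthetase, which uses acetate. It stood at 20.3, 21.4, 23.7 and 20.5 CPM in wild-type mice at 3 months and at 31.5, 30.9, 33.1 and 29.3 CPM at 19 months. In V338Y mice it stood at 22.6, 24.0, 22.7 and 19.4 CPM at 3 months and at 30.5, 29.6, 28.5 and 29.8 CPM at 19 months. The ages were apart in both genotypes, with log2 fold changes of 0.58 (SE 0.0747, adjusted p = 6.59e-08) in wild-type and 0.42 (SE 0.0747, adjusted p = 0.000539) in V338Y mice.

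*Acsl6* stood at 311, 321, 323 and 298 CPM in wild-type mice at 3 months and at 379, 362, 346 and 349 CPM at 19 months. The V338Y mice had 337.8, 298, 309.9 and 317 CPM at 3 months and 357, 365, 403 and 382 CPM at 19 months. The ages did not overlap in either genotype, and the log2 fold changes were 0.24 (SE 0.0405, adjusted p = 7.76e-06) and 0.26 (SE 0.0581, adjusted p = 0.00255). *Acsl1*, the long-chain synthetase best known from liver, fat and heart, stood at 58.7, 61.1, 56.9 and 63.4 CPM in wild-type mice at 3 months and at 68.1, 68.0, 68.7 and 64.0 CPM at 19 months. V338Y mice were at 63.6, 62.2, 57.3 and 63.5 CPM at 3 months and at 69.1, 64.9, 67.5 and 68.2 CPM at 19 months. The ages were apart in both genotypes, by log2 fold changes of 0.20 (adjusted p = 0.00176) and 0.14 (adjusted p = 0.0525). *Acsl3* rose by 0.57 for wild-type and 0.53 for V338Y mice (adjusted p = 2.41e-12 and 0.000165), and it shares 244 exon bases with *Utp14b* on the same strand, which had 0.98 and 0.90. *Acsl4*, which prefers arachidonic acid, and *Acsl5* passed in neither genotype.

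**Figure D4:**
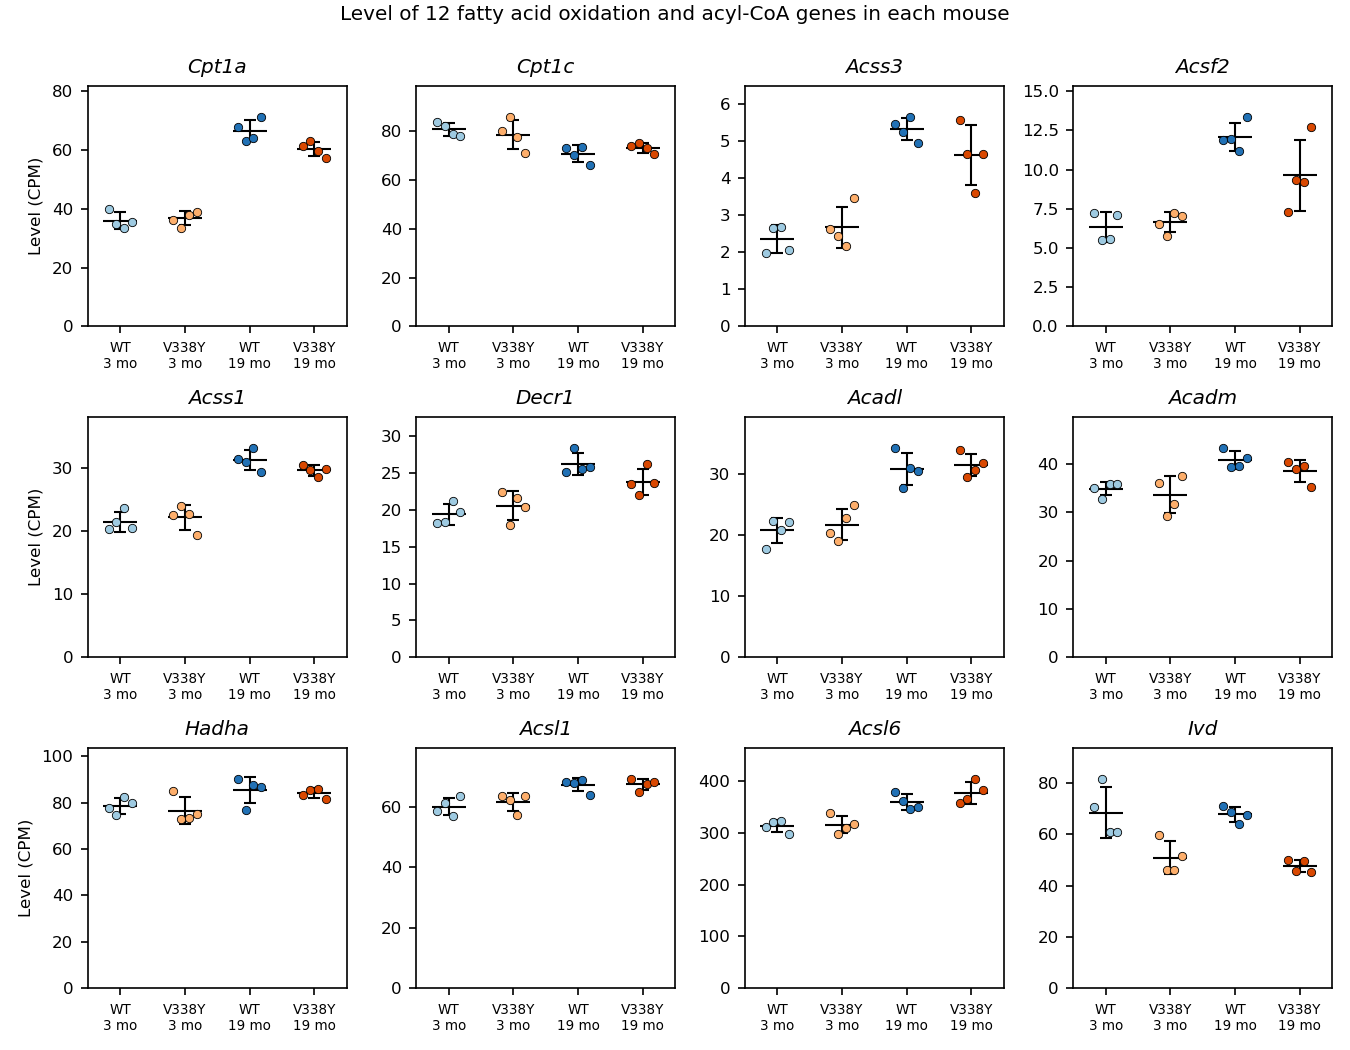
TMM-scaled CPM in each mouse (points) with the group mean and SD (bars) for the 12 genes given per mouse in the text, in the 4 groups of 4 mice. *Cpt1a* lies at 33.4 to 40.1 CPM at 3 months and at 57.2 to 71.1 CPM at 19 months, and *Ivd* lies at 45.2 to 59.6 CPM in V338Y and at 60.8 to 81.4 CPM in wild-type mice.

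Markers of other cell types moved with age in the same libraries. Summed astrocyte markers were at 3408 to 4294 CPM at 3 months and at 6771 to 8152 CPM at 19 months, and 12 of 12 rose in wild-type and 11 of 12 in V338Y mice (median log2 fold change 0.793 and 0.749). Endothelial markers were at 252.4 to 271.9 and 1072 to 1288 CPM, with 10 of 10 higher in both genotypes, and pericyte and smooth muscle markers at 189.8 to 241 and 798 to 975.3 CPM, with 8 of 8 higher. Microglial markers were at 270.6 to 369.9 and 596.5 to 690.4 CPM, with 10 of 10 higher. Oligodendrocyte markers were at 3941 to 4842 and 6478 to 7393 CPM, oligodendrocyte precursor markers at 192.5 to 245.5 and 303.9 to 328.7 CPM and ependymal markers at 21.5 to 25.39 and 30.01 to 41.2 CPM. Meningeal markers were at 118 to 163.1 and 329.9 to 458.8 CPM, and the haemoglobin genes and *Alas2* at 124.3 to 256.5 and 378.8 to 896.4 CPM. Neuronal markers were at 6269 to 7200 and 6021 to 6623 CPM, with 7 of 10 lower and 1 higher in both genotypes. Choroid plexus markers were at 693.1 to 1384 and 598.5 to 3600 CPM and striatal markers at 364.2 to 457.5 and 342 to 388.3 CPM, and these ranges overlapped. The part of these cell types in the rise of the fatty acid genes was not tested. V338Y mouse 14 was 3 months old and had about as few cerebellum markers as the 19-month-old mice. In mouse 14, all 17 genes that rose in V338Y mice were below every 19-month-old V338Y mouse. Of these, 7 were within the range of the other 3 mice of its group, 7 below it and 3 (*Cpt2*, *Hadh*, *Acss1*) above it. Mouse 14 was itself part of the test that chose these 17 genes, so its place below the 19-month-old mice is no independent evidence. With a score of the cerebellum markers added to the fit, 11 genes rose in V338Y mice, 10 of them among the 17. In V338Y mice the score was 2.901 in mouse 14, 6.579 or more in the other 3-month-old mice and 2.213 or less at 19 months. That fit separates the score from age mainly through mouse 14, so it cannot decide whether the rises are independent of the cerebellum markers. In wild-type mice the score does not overlap between the ages either, and none of the 39 genes was called with the score added. The X-linked genes *Hsd17b10* and *Acsl4* were not called in either age comparison, which does not show whether sex matters for the other genes. The part of sex in the age values was not tested.

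Whether the age effect differed between the genotypes was tested with an interaction over all 16 mice. None of the 39 genes passed, against 0% of all 16831 genes with a higher and 0.0535% with a lower age effect in V338Y mice. DESeq2 called none of the 39 either, and 1 gene, *Hsd17b4*, had an unadjusted p under 0.05, against 10.2% of all genes. The difference for *Hsd17b4* was 0.26 on the log2 scale (95% confidence interval 0.083 to 0.445, adjusted p = 0.307). The 5 genes of the group that the study singled out had smaller estimates of the rise in V338Y than in wild-type mice, with intervals that included 0. For *Acss3* the difference was -0.41 (-0.932 to 0.108, adjusted p = 0.584), for *Acsf2* -0.39 (-0.801 to 0.021, adjusted p = 0.511) and for *Decr1* -0.23 (-0.463 to 0.004, adjusted p = 0.497). For *Cpt1a* it was -0.19 (-0.382 to 0.009, adjusted p = 0.51) and for *Acss1* -0.14 (-0.353 to 0.075, adjusted p = 0.658). The study chose these genes on these samples, so their common sign is no independent evidence. Of the 39 estimates, 16 were positive and 23 negative, with a median of -0.019 against 0.00205 over all genes.

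Between the genotypes at 19 months, *Ivd* fell in V338Y mice and no other of the 39 genes was called. *Ivd* encodes isovaleryl-CoA dehydrogenase of leucine breakdown, which belongs to the acyl-CoA dehydrogenase family and passes its electrons to the electron transfer flavoprotein. At 19 months, *Ivd* stood at 71.2, 68.6, 63.8 and 67.5 CPM in wild-type and at 49.96, 45.8, 49.4 and 45.2 CPM in V338Y mice. The groups did not overlap, and the level was 31.0% lower in V338Y mice (log2 fold change -0.54, SE 0.0524, 95% confidence interval -0.643 to -0.429, adjusted p = 1.94e-08). Leaving out each mouse in turn gave -0.561 to -0.503, each called. Over all 16420 genes tested, 1.19% were higher and 1.92% lower in V338Y mice, and the share of higher among all called genes was 38.3%, or 57.6% with library size as the only scaling. Of the 39 genes, 4 had groups that did not overlap (*Cpt1a*, *Cpt2*, *Ivd* and *Acaa2*), against 8.92% of all genes.

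*Ivd* lies on chromosome 2 at 118861954 to 118882909 (GRCm38, plus strand), 8.7 Mb from *Mrps5*, the gene that carries the knock-in, at 127587222 to 127606829. Within 10 Mb of *Mrps5*, 228 genes were tested and 38 were called at 19 months (16 higher and 22 lower), or 16.7% against 3.12% of all genes. At 3 months, 7 of 225 genes in that window were called, or 3.11% against 0.0616%. The part of the position beside *Mrps5* in the level of *Ivd* was not tested. The other members of chromosome 2 were farther away, *Acss1* at 23.01 Mb and *Crat* at 97.17 Mb.

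The 5 genes that the study singled out at 19 months (*Cpt1a*, *Acsf2*, *Acss1*, *Acss3* and *Decr1*) had lower estimates in V338Y mice and did not pass the adjusted test. The study lists them by a p-value of 0.05 or less without adjustment. In the fit used here, *Acss1* and *Acss3* did not pass that cut either (edgeR unadjusted p = 0.101 and 0.0963). Beside these transcripts, the study reported an accumulation of acetyl-, oleoyl- and palmitoylcarnitine in the cerebellum, which RNA counts do not measure. In *Cpt1a*, the V338Y mice, at 57.2 to 63.1 CPM, did not overlap with the wild-type mice, at 63.1 to 71.1 CPM, but met them at 63.1 CPM (log2 fold change -0.16, 95% confidence interval -0.267 to -0.048, adjusted p = 0.11). For *Decr1* the value was -0.16 (-0.297 to -0.014, adjusted p = 0.259), for *Acss1* -0.11 (-0.232 to 0.022, adjusted p = 0.42) and for *Acss3* -0.26 (-0.564 to 0.049, adjusted p = 0.411). For *Acsf2* it was -0.32 (-0.568 to -0.063, adjusted p = 0.184), and the V338Y mice ranged from 7.26 CPM in mouse 17 to 12.7 CPM in mouse 20, which lay inside the wild-type range of 11.2 to 13.3 CPM. Without V338Y mouse 20, *Acsf2* passed the test (-0.47, adjusted p = 0.0151), and over all mice left out in turn its adjusted p was between 0.0151 and 0.399. These genes were chosen by the study on these samples, so their direction is no independent evidence. Estimates above 0 were found for *Acaa2* with 0.14 (0.006 to 0.272, adjusted p = 0.281) and *Hsd17b4* with 0.13 (0.032 to 0.23, adjusted p = 0.151), and neither passed. No gene of the 39 was called higher, and DESeq2 called none higher. At an unadjusted p under 0.05, 2 were higher (*Acaa2* and *Hsd17b4*) and 4 lower (*Ivd* and, of the genes singled out by the study, *Cpt1a*, *Acsf2* and *Decr1*), against 16.2% of all genes in either direction, a share near that of the 39. The median of the 39 log2 fold changes was 0.002, against -0.00072 over all genes. Astrocyte markers had a median of -0.094 in this comparison, with 2 of 12 called, both lower, and meningeal markers of -0.344, with 5 of 10 lower and 1 higher. Microglial markers had a median of -0.154 with 2 of 10 lower, neuronal markers 0.042 with 2 of 10 higher, and pericyte and smooth muscle markers -0.11 with 1 of 8 lower. Choroid plexus markers had a median of 0.58, with 8 of 8 estimates above 0 and none called, and the haemoglobin genes and *Alas2* -0.504, with 5 of 5 below 0 and none called. Skeletal muscle markers summed to 7.279 to 8.725 CPM in wild-type and 17.93 to 157.7 CPM in V338Y mice, with none of 8 called. The part of these markers in the values above was not tested.

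**Figure D5:**
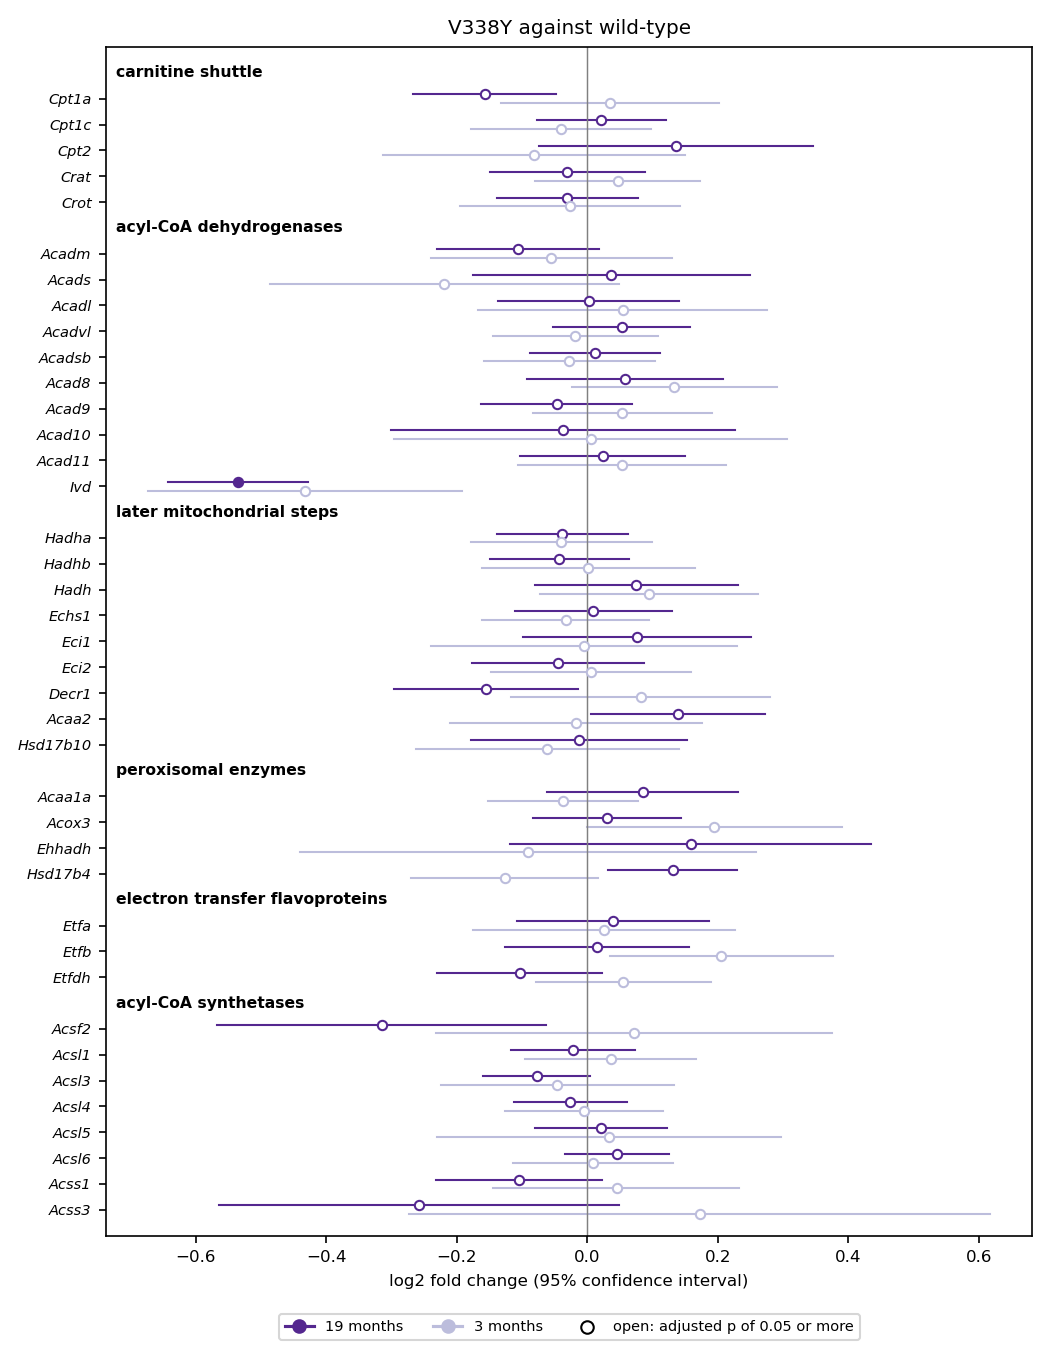
Log2 fold change of V338Y against wild-type mice (x axis) with its 95% confidence interval for each of the 39 genes at 19 and at 3 months (4 mice per group); filled points have an adjusted p under 0.05. *Ivd* is the single filled point, at -0.54 at 19 months, with -0.43 at 3 months.

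At 3 months, none of the 39 genes was called between the genotypes by edgeR or by DESeq2, against 0.0185% of all 16241 genes higher and 0.0431% lower. At an unadjusted p under 0.05 there were 2, *Ivd* and *Etfb*, against 5.02% of all genes, a share near that of the 39. They were also the 2 genes whose groups did not overlap, against 3.4% of all genes. *Ivd* stood at 70.7, 81.4, 60.9 and 60.8 CPM in wild-type and at 59.6, 46.2, 46.0 and 51.5 CPM in V338Y mice. Every V338Y mouse was below every wild-type mouse, although mouse 13 came close (log2 fold change -0.43, SE 0.11, 95% confidence interval -0.673 to -0.192, adjusted p = 0.848). Over the alternatives, the adjusted p of *Ivd* at 3 months was between 0.0675 and 1. The difference between the genotype effects at the ages was -0.09 on the log2 scale (-0.366 to 0.18, adjusted p = 0.84), so the estimates at 3 and 19 months were not shown to differ. *Etfb*, a subunit of the flavoprotein that accepts electrons from IVD, had 0.21 (0.034 to 0.377, adjusted p = 0.926) at 3 months and 0.01 (-0.126 to 0.155, adjusted p = 0.951) at 19 months. *Cpt1a* had 0.03 (-0.133 to 0.201), *Decr1* 0.08, *Acsf2* 0.07, *Acss1* 0.04 and *Acss3* 0.17, and none passed. The median of the 39 estimates was 0.005, against 0.00476 over all genes.

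Other genes of the pathway were taken from a list of 87, of which 83 were tested in wild-type mice over age and 82 in V338Y mice. With age, 26 rose and 23 fell in wild-type mice (median log2 fold change 0.027), and 21 rose and 14 fell in V338Y mice (median -0.003). All genes had 31.4% higher and 31.5% lower in wild-type and 23.1% and 25.7% in V338Y mice, so the shares of the list were near or below these. Genes that respond to PPAR receptors were higher in 6 of 8 in wild-type and 5 of 8 in V338Y mice, with medians of 0.922 and 0.841. *Pdk4*, the kinase that inhibits pyruvate dehydrogenase, rose by a log2 fold change of 1.19 (SE 0.141, adjusted p = 1.17e-08) in wild-type mice. In V338Y mice, *Cd36*, a fatty acid transporter, rose by 1.49 (SE 0.187, adjusted p = 3.85e-05) and *Acacb*, which makes the malonyl-CoA that inhibits CPT1, by 1.26 (SE 0.104, adjusted p = 9.57e-07). Each is given for the genotype in which it was among the largest rises. No gene of the list was called in the interaction, so these rises were not shown to differ between the genotypes. In wild-type and V338Y mice alike, *Fabp3*, a fatty acid binding protein of neurons and muscle, fell by 0.83 and 0.79 on the log2 scale (adjusted p = 7.39e-09 and 0.000128). *Acot7*, the acyl-CoA thioesterase of neurons, fell by 0.82 and 0.67 (adjusted p = 2.42e-16 and 4.2e-06).

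Against the same shares of all genes, the regulators had 8 of 12 higher and 3 lower in wild-type and 5 higher and 1 lower in V338Y mice. The acyl-CoA thioesterases had 2 of 9 higher and 4 lower in wild-type and 3 higher and 2 lower in V338Y mice. The genes of fatty acid activation and binding had 2 of 14 higher and 5 lower, and 3 higher and 2 lower, respectively. The branched-chain and odd-chain acyl-CoA genes, which hold the neighbours of *Ivd* in leucine breakdown, had 3 of 16 higher and 5 lower in wild-type and 2 higher and 3 lower in V338Y mice. Of the other peroxisomal genes, 4 of 14 were higher and 3 lower in wild-type and 2 of 13 higher and 2 lower in V338Y mice, and of the carnitine supply genes 1 of 5 was higher in both. Between the genotypes at 19 months, 2 genes of the list were called, both higher in V338Y mice: *Dbi*, the acyl-CoA binding protein, by 0.24 (SE 0.0465, adjusted p = 0.00158), and *Acacb* by 0.30 (SE 0.0797, adjusted p = 0.0272). Over all genes, 1.19% were called higher and 1.92% lower. At an unadjusted p under 0.05, 13 of the 82 genes of the list that were tested passed, a share near the 16.2% of all genes. At 3 months and in the interaction none was called by edgeR, and 2 and 6 genes of the list, respectively, had an unadjusted p under 0.05, shares below the 5.02% and 10.2% of all genes.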

How the data were processed

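Groups, ages and mouse numbers came from the labels. The authors sequenced single-end reads of a stranded kit and deposited one estimated count per gene and mouse, without normalization. Their paper names RSEM, whereas the processing notes name STAR 2.4.2a, featureCounts and GRCm38. The deposited values were whole numbers, and all 1495 values of 10000 or more ended in 0, so that at most 4 significant digits were kept. Of 39179 identifiers, 37607 had a symbol in GENCODE M21.

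Genes with 10 counts or more in 2 or more mice of a compared group were kept, scaled with TMM and tested with edgeR 4.0.16 (R 4.3.3, robust quasi-likelihood test, Benjamini-Hochberg over all genes kept, adjusted p under 0.05), each pair of groups in a fit of its own and the interaction over all 16 mice. The procedure was run on simulated data in which far fewer genes changed than were called over age. That run does not check the age calls. Intervals are 95% confidence intervals of the fit, and p-values measure the spread between mice.

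The members, the pathway list, the marker lists and the tests were chosen with earlier results of these data known. Values in every mouse are given for genes called between the genotypes, the 5 genes the study named and the 5 highest and 5 lowest fold changes among called genes over age in wild-type mice. Other pathway genes are named where called between the genotypes or where they held the 2 largest rises or falls over age. One gene that this rule names, and the counts of its role group, are not reported here. Of the 87 symbols of the pathway list, *Tmlhe* and *Mmut* were matched to no identifier (*Mmut* is a newer symbol of *Mut*, which was tested), *Acox2* and *Acot12* did not pass the filter, and *Acaa1b* passed it in 3 of the 5 comparisons.

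The alternatives were DESeq2 1.42.0, RLE size factors, library size only, the likelihood-ratio test, 2 other filters, a fit of all mice, a cerebellum marker score (mean log2 CPM with a prior count of 2) as a covariate, removal of trends on GC content and exon length (lowess span 0.3), a threshold of 1e-05 and leaving out each mouse in turn. Promoters were taken from the RefSeq table of GRCm38.p6.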

Additional observations from a re-analysis of the deposited data

Results flagged for a closer look

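In each group of 4 mice, the gap between the most distant mouse and its neighbour was compared with the range of the group for each of the 39 genes. Of 156 such groups, 4 held a mouse farther away than Dixon's critical ratio for 4 values allows, whereas chance marks about 1 in 20. *Acsl3* was at 165.2 CPM in 3-month-old V338Y mouse 15, against 212.8 to 216.9 CPM in the other 3 mice (ratio 0.921). *Hadha* was at 85.02 CPM in 3-month-old V338Y mouse 13, against 72.89 to 74.92 CPM (0.832). *Acad11* was at 34.26 CPM in the same mouse, against 31.68 to 32.07 CPM (0.85). *Acsl1* was at 64.04 CPM in 19-month-old wild-type mouse 15, against 67.96 to 68.73 CPM (0.836). Without V338Y mouse 13, *Hadha* passed the test over age in V338Y mice.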

How the results depend on the processing

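No paired analysis was possible because the labels pair no mice between the groups, and a recurring mouse number was not read as the same mouse. Between the genotypes, *Ivd* at 19 months was called under every alternative run, with an adjusted p of at most 0.00429, and no gene of the 39 was called at 3 months or in the interaction under any. Over age, the count of higher genes in wild-type mice (17) was 10 at an adjusted p under 1e-05 and 0 with the cerebellum score, and that in V338Y mice (17) was 1 and 11. The count of lower genes in wild-type mice (1) was 6 with library size only, 3 after removal of GC and length trends, 2 without the filter and in the fit of all mice, and 0 with the cerebellum score and at 1e-05. That in V338Y mice (1) was 3 with library size only, 2 without the filter and in the fit of all mice, and 0 at 1e-05. The cerebellum score does not overlap between the ages in either genotype, and in V338Y mice it is separated from age mainly by mouse 14. With this score, *Cpt1a* (-0.19), *Hadha* (-0.064), *Acaa2* (-0.91) and *Acsf2* (-0.37) changed sign in wild-type mice without being called, and *Acsl5* was called lower in V338Y mice (-0.42, adjusted p = 0.00852). The cause of the other changes was not tested.

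Leaving out each mouse in turn gave 16 to 18 higher and 1 to 4 lower genes over age in wild-type mice, 14 to 19 higher and 1 to 2 lower in V338Y mice, and 1 to 2 lower at 19 months. There were 4 lower without 19-month-old wild-type mouse 12 (*Acadvl*, *Acaa1a* and *Hsd17b4* added) and 2 without 3-month-old wild-type mouse 12 (*Hsd17b4* added). In V338Y mice there were 2 without 3-month-old mouse 14 or 19-month-old mouse 17 (*Acad8* added), and at 19 months there were 2 without V338Y mouse 20 (*Acsf2* added).

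Over all genes, wild-type age calls (5050 higher and 5065 lower) were 26 and 34 with the cerebellum score and 2339 and 1977 at 1e-05. V338Y age calls (3875 and 4306) were 2492 and 2407, and 698 and 124. The genotype calls at 19 months (196 and 316) were 43 and 82, and 14 and 38, respectively. They were 28 and 92 in the fit of all mice, 381 and 410 without the filter and 357 higher with library size only. At 3 months (3 and 7) there were 10 and 16 with DESeq2, 12 and 15 with the likelihood-ratio test, 8 and 15 in the fit of all mice, 7 and 13 without the filter, 5 and 9 with the cerebellum score, 1 and 7 with the stricter filter and 1 and 0 at 1e-05. In the interaction (0 and 9) there were 17 and 26 with DESeq2, 29 and 40 with the likelihood-ratio test, 12 and 20 without the filter, 47 and 61 with the cerebellum score, 5 and 15 after removal of GC and length trends, 1 and 9 with library size only and 0 and 0 at 1e-05.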
